A study of Mus musculus with 6 samples.

Results

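The genes described here are 45 genes of the heat shock response, the unfolded protein response and the integrated stress response. They were matched by gene symbol in a table of 46078 gene rows, and each of the 45 symbols had 1 row. Alveolar macrophages, which live on the air side of the lung, were sorted from the lungs of untreated mice, and polyadenylated RNA was sequenced from 1 library per mouse. The 3 control mice were Car4fl/fl, with loxP-flanked alleles of Car4, the gene of the membrane-anchored carbonic anhydrase 4. The other 3 mice were Car4fl/fl-CD11cCre, which add a Cre recombinase under CD11c to those alleles. CD11c is an integrin subunit encoded by Itgax that dendritic cells carry as well as alveolar macrophages. Since mice with the Cre and intact Car4 were not among the groups, the Cre transgene and the loss of Car4 cannot be told apart. The sources used here give no age, sex or strain.

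Car4 was at 499, 385 and 270 CPM (counts scaled to the size of the library) in the control libraries and at 40.2, 46.9 and 36.3 CPM in the Cre libraries. Every Cre library was below every control, at 10.7% of the control mean, and the log2 fold change was -3.23 ± 0.22 (SE). Its Benjamini-Hochberg adjusted p in the quasi-likelihood test of edgeR was 0.0047. Without control library 2 edgeR called no gene lower, Car4 included. The libraries held 53824475 to 65443314 counts in genes, and 3 counts correspond to 0.0465 to 0.0557 CPM. Cre library 1 stood apart from the other Cre libraries. On the first principal component it lay at 0.444 and Cre libraries 2 and 3 at 39.8 and 39.4, against -29.7 to -22.5 in the controls.

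Cells keep their proteins folded with chaperones, which are made in larger amounts when unfolded protein accumulates. In the cytosol the factor HSF1 is released from chaperones and switches on the Hsp70, Hsp90 and Hsp40 genes. In the endoplasmic reticulum (ER) 3 sensors, IRE1 (encoded by Ern1), ATF6 and PERK (encoded by Eif2ak3), are held back by the chaperone BiP (encoded by Hspa5). IRE1 splices the Xbp1 transcript, ATF6 is cut to an active factor, and both then act on ER chaperone and degradation genes. PERK slows translation and favours synthesis of ATF4, a factor that acts on amino acid genes and on Ddit3, the gene of CHOP, and that other kinases of the integrated stress response also induce. Alveolar macrophages secrete and take up large amounts of protein, and lung surfactant is among what they clear.

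The promoters of the members differ in the letters known as binding elements of these 3 branches, so a few are shown before the values. Sequences are from RefSeq on GRCm38.p6, for which 38 of the 45 members matched a promoter entry, and the 250 bases before each start site were searched on both strands. The ER stress response element, searched as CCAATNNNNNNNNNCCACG, was found in 7 of the 13 ER chaperone genes with an entry and in 35 of 27025 genes in all (0.13%). The sites below are 30 bases long, run in the direction of the element, and carry its fixed letters in capitals.
Hspa5: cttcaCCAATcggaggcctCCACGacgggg
Calr: tatgggCCAATgagggtcgaCCACGcgttg
Hsp90b1, far site: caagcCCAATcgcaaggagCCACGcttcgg
Hsp90b1, near site: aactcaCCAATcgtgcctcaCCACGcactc
Canx: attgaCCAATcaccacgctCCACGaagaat
Pdia6: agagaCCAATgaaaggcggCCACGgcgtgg
Dnajc3: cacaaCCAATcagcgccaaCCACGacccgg
Creld2: tgtggaCCAATtgaggctcgCCACGagaag
The site of Hspa5 is at chr2:34772020-34772049 on the plus strand, and the element begins 65 bases before the start site. Calr has its site at chr8:84847069-84847098 (plus strand, 162 bases before the start). Those of Hsp90b1 are at chr10:86705632-86705661 (minus strand, 212 bases) and chr10:86705527-86705556 (plus strand, 107 bases), and that of Canx is at chr11:50325794-50325823 (minus strand, 145 bases). Pdia6 has it at chr12:17266486-17266515 (plus strand, 98 bases), Dnajc3 at chr14:118937822-118937851 (plus strand, 105 bases) and Creld2 at chr15:88819515-88819544 (minus strand, 126 bases). Hsp90b1 thus carried the element in both directions, and no matched member of the other classes carried it in its window.

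The whole window of Creld2 (chr15:88819396-88819645, plus strand) is given to show where in a promoter the element lies, with its fixed letters in capitals as they read on the strand of the gene. That of Pdia4 (chr6:47813513-47813762, minus strand) is shown because Pdia4 had the smallest p of all members and no match to the element in these 250 bases. No match says only that these letters are not in the window.
Creld2: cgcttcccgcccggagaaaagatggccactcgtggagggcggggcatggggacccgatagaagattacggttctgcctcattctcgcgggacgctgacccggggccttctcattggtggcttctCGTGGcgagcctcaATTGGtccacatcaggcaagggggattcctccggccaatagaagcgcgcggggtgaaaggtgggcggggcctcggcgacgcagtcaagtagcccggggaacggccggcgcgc
Pdia4: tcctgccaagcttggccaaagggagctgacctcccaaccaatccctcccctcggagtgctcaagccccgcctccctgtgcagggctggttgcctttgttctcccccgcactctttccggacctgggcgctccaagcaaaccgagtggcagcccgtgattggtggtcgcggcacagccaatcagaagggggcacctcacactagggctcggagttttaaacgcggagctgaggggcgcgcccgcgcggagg

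The heat shock element, searched as GAANNTTCNNGAA, was found in 139 of 27025 genes (0.514%) and in 2 of the 12 cytosolic and mitochondrial chaperone genes with an entry. These were the neighbours Hspe1 and Hspd1, which share a single site between their starts made of 2 overlapping matches. Hspa8, Hsp90ab1, Hsp90aa1 and Hsf1 had no entry, and Hspa1a and Hspa1b had no match. Only these exact letters were searched, so no match does not mean that a gene lacks a heat shock element. The CCAAT/enhancer-ATF response element, searched as TGATGNAA and known as a site of ATF4, was found in 1056 genes (3.91%), in 3 of the 7 genes of the ATF4 arm and in Herpud1. The sites are shown in the same way, with the fixed letters in capitals.
Hspe1 and Hspd1, heat shock element: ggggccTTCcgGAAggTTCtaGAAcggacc
Atf3, ATF element: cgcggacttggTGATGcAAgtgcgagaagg
Chac1, ATF element: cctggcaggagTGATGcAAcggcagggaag
Asns, ATF element: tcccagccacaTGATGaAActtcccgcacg
Herpud1, ATF element: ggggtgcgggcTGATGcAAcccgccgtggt
The shared site of Hspe1 and Hspd1 is at chr1:55088053-55088082 (minus strand), 89 bases before the start of Hspe1 and 144 bases before a start of Hspd1. Atf3 has its site at chr1:191183425-191183454 (plus strand, 110 bases before the start), Chac1 at chr2:119351038-119351067 (minus strand, 193 bases), Asns at chr6:7693214-7693243 (minus strand, 23 bases) and Herpud1 at chr8:94386306-94386335 (minus strand, 112 bases). A match of letters is a description and not evidence of binding.

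The genotype comparison asks which transcripts differ once Car4 is deleted in cells that express CD11c. ER chaperone genes were a little higher in the Cre libraries, all 15 of them, by a median log2 fold change of 0.22, while genes of the ATF4 arm had a median of -0.01. Cytosolic and mitochondrial chaperone genes lay between, at 0.13, with Hspa1a and Hspa1b farthest from the controls. In bulk RNA, fewer cells of a type and less RNA per cell cannot be told apart. No member passed the adjusted threshold of 0.05 in either direction (edgeR quasi-likelihood, Benjamini-Hochberg), where 0.0066% of the 15147 tested genes passed it as higher and 0.0066% as lower. The adjusted p of the members ran from 0.185 to 0.999. Chac1 was left out of the test by the filter on low counts, so 44 members were tested.

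At an unadjusted p under 0.05, edgeR placed 16 of the 44 members higher and 1 lower, beside 6.54% and 6.28% of all tested genes. In 18 members every Cre library lay above every control and in 1 every Cre library lay below, beside 8.63% and 9.22% of all genes. A log2 fold change above 0 was found in 38 of the 44, beside 49.4% of all genes, whose median log2 fold change was -0.00192. The median over the members was 0.155. DESeq2 called 6 members higher and 0 lower at an adjusted p under 0.05, beside 2.32% and 1.46% of the 14841 genes to which it gave an adjusted p, and at an unadjusted p under 0.05 it placed 22 higher and 1 lower. The 6 were Hspa8, Hsph1, Hsp90b1, Pdia4, Sdf2l1 and Hyou1. limma-voom called none of the members at its adjusted threshold, and 16 were higher and 1 was lower at an unadjusted p under 0.05. The share of all genes at an unadjusted p under 0.05 was not counted for DESeq2 or limma-voom. Their counts of 22 and 16 therefore have no background to be read against. The members were chosen with results of these libraries known, so these counts describe the members and are no test of the group.

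**Figure D1:**
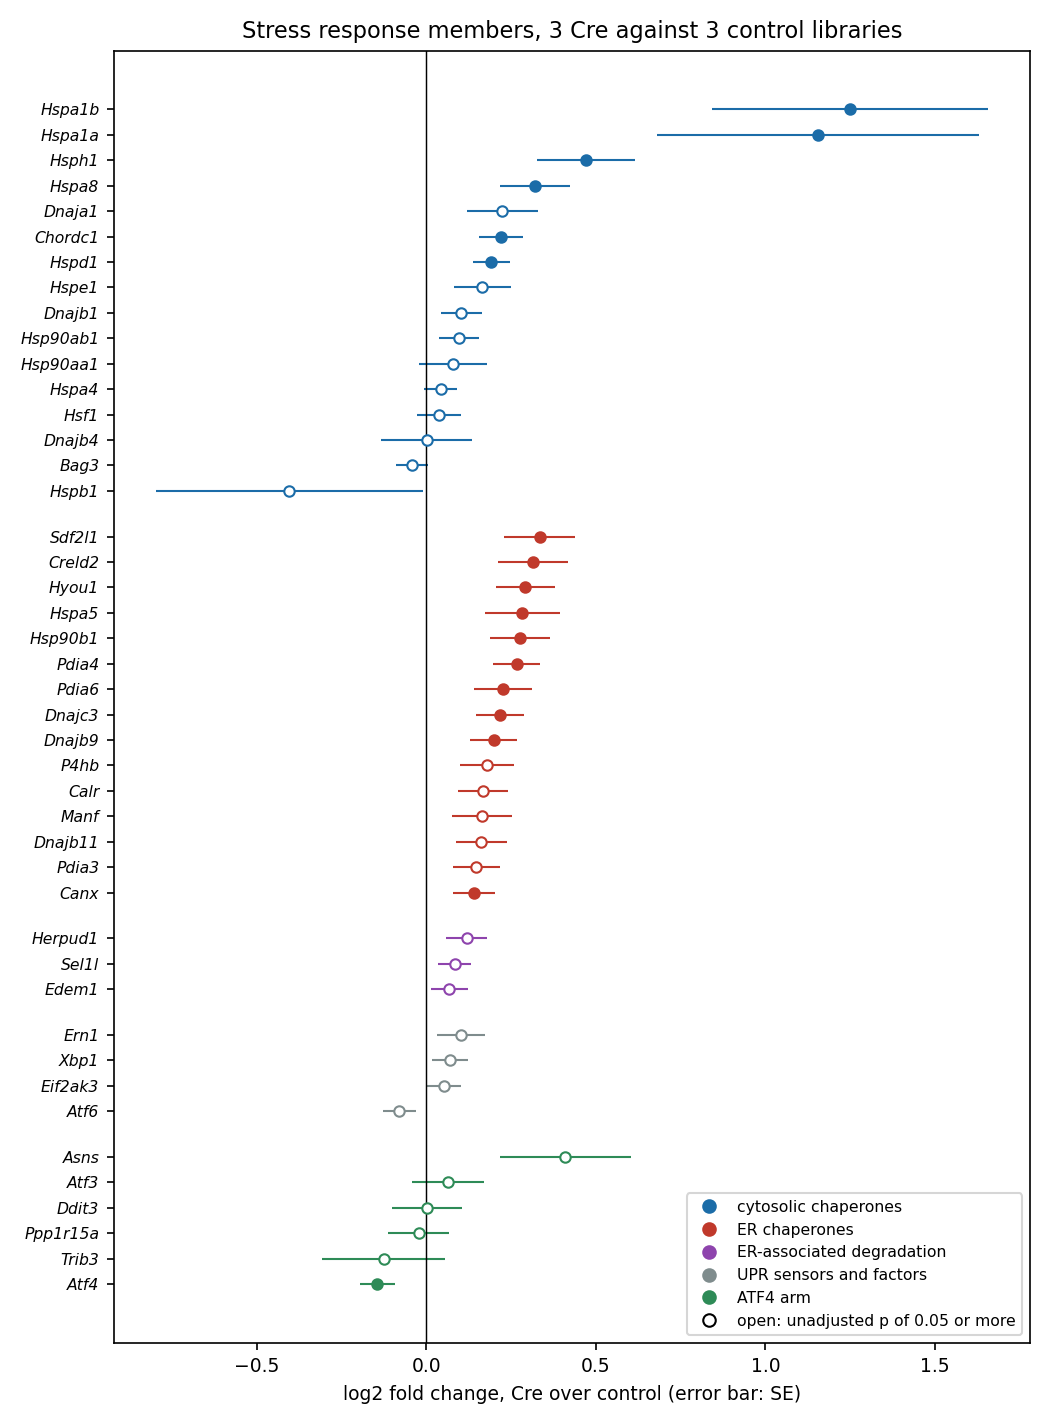
Log2 fold change of each of the 44 tested members, Cre over control, with its SE as a horizontal bar, coloured by class and filled where the unadjusted p was under 0.05. All 15 ER chaperones lie to the right of 0, Hspa1a and Hspa1b lie farthest right at 1.16 and 1.25, and Atf4 is the filled point left of 0.

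Among the cytosolic chaperones, Hspa8 encodes the constitutive Hsp70 of the cytosol. Hspa8 was at 855, 739 and 992 CPM in the control libraries and at 1038, 1074 and 1116 CPM in the Cre libraries. Every Cre library was above every control, and the 3 Cre libraries were closer to each other than the controls were. The log2 fold change was 0.32 ± 0.10 (SE), with an unadjusted p of 0.0155 in edgeR and an adjusted p of 0.0423 in DESeq2. Hsph1, which encodes an Hsp110 that reloads Hsp70 with ATP, was at 45.8, 47.7 and 65.5 CPM in the controls and at 63.7, 76.3 and 80.4 CPM in the Cre libraries. Its groups overlapped, since Cre library 1 lay just under control library 3. The log2 fold change of Hsph1 was 0.47 ± 0.15 (SE), with an unadjusted p of 0.0123 in edgeR and an adjusted p of 0.0269 in DESeq2.

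Hspd1 encodes Hsp60, the barrel-shaped chaperonin of mitochondria. It was at 119, 115 and 125 CPM in the controls and at 136, 142 and 132 CPM in the Cre libraries, which did not overlap. Its log2 fold change was 0.19 ± 0.05 (SE, unadjusted p 0.00803). Hspe1, the gene of its lid Hsp10, shares the promoter region shown above. The controls held 42.5, 37.7 and 39.7 CPM of Hspe1 and the Cre libraries 40.7, 49.9 and 43.9 CPM. These groups overlapped, and the log2 fold change was 0.17 ± 0.08 (SE, unadjusted p 0.0825). Chordc1, which encodes a co-chaperone of Hsp90, was at 42, 42.3 and 45.8 CPM in the controls and at 46.8, 51.3 and 53.5 CPM in the Cre libraries. All Cre libraries lay above the controls for Chordc1, with a log2 fold change of 0.22 ± 0.07 (SE, unadjusted p 0.0103).

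Hspa1a and Hspa1b encode the stress-inducible Hsp70 and are single-exon neighbours on the minus strand of chromosome 17 (34969190 to 34972156 and 34956436 to 34959238 in GRCm38). Of the 50-base windows of Hspa1a transcripts 58.8% also occur in Hspa1b, so reads could be split between them or dropped, and their sum is given too. Hspa1a was at 1.05, 1.58 and 2.43 CPM in the controls and at 2.23, 2.43 and 6.61 CPM in the Cre libraries, which overlapped. Hspa1b was at 2.11, 3.26 and 4.17 CPM in the controls and at 4.51, 5.62 and 12.6 CPM in the Cre libraries, all of them above the controls. The summed values were 3.15, 4.84 and 6.60 CPM against 6.74, 8.06 and 19.2 CPM. Cre library 3 was the highest for both genes, and its sum was above that of every other library.

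The log2 fold change was 1.16 ± 0.48 for Hspa1a, 1.25 ± 0.41 for Hspa1b and 1.22 ± 0.42 (SE) for the sum, with unadjusted p-values of 0.042, 0.0158 and 0.021 in edgeR. These were the members with the largest fold changes, from among the lowest levels of the class. Without Cre library 3 the sum gave 0.608 and Hspa1b 0.675, and without that library Hspa1a gave 0.471 with an unadjusted p of 0.205. With no filter on low counts edgeR called Hspa1b (adjusted p 0.0489) and Hsph1 (adjusted p 0.0449), the only members it called under any setting tried. That setting called 340 genes higher and 183 lower in all, against 1 and 1 with the filter, so the calls are not particular to these members. The share of all genes was not computed for it.

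Hsp90ab1, the gene of the constitutive Hsp90 and the most abundant member of the class, was at 1613, 1568 and 1681 CPM in the controls and at 1763, 1753 and 1686 CPM in the Cre libraries. The Cre libraries lay above the controls by a narrow margin, with a log2 fold change of 0.10 ± 0.06 (SE, unadjusted p 0.14). Hsf1, the gene of the heat shock factor itself, was at 37.8, 40.9 and 44.2 CPM in the controls and at 43.6, 41.0 and 41.5 CPM in the Cre libraries. The Cre values of Hsf1 lay inside the control range, and its log2 fold change was 0.04 ± 0.07 (SE).

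The other members of the class did not reach an unadjusted p of 0.05. Their log2 fold changes were 0.22 for Dnaja1, 0.10 for Dnajb1 and 0.00 for Dnajb4, 3 genes of Hsp40 co-chaperones, 0.08 for Hsp90aa1, the inducible Hsp90, and 0.04 for Hspa4, an Hsp110. Bag3, which links Hsp70 to autophagy, had -0.04, and the small heat shock protein gene Hspb1 had -0.40 at 0.155 to 0.416 CPM. In the class as a whole 14 of 16 members had a log2 fold change above 0, 6 were higher at an unadjusted p under 0.05 and none lower, beside 6.54% and 6.28% of all genes, and in 5 all Cre libraries were above the controls, beside 8.63%. Between 39.4% and 66.3% of the 50-base windows of Hspa8, Hsp90aa1, Hspa1a, Hspa1b, Hspd1 and Hspb1 occur in another gene as well, and the sources used here do not say how such reads were counted.

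**Figure D2:**
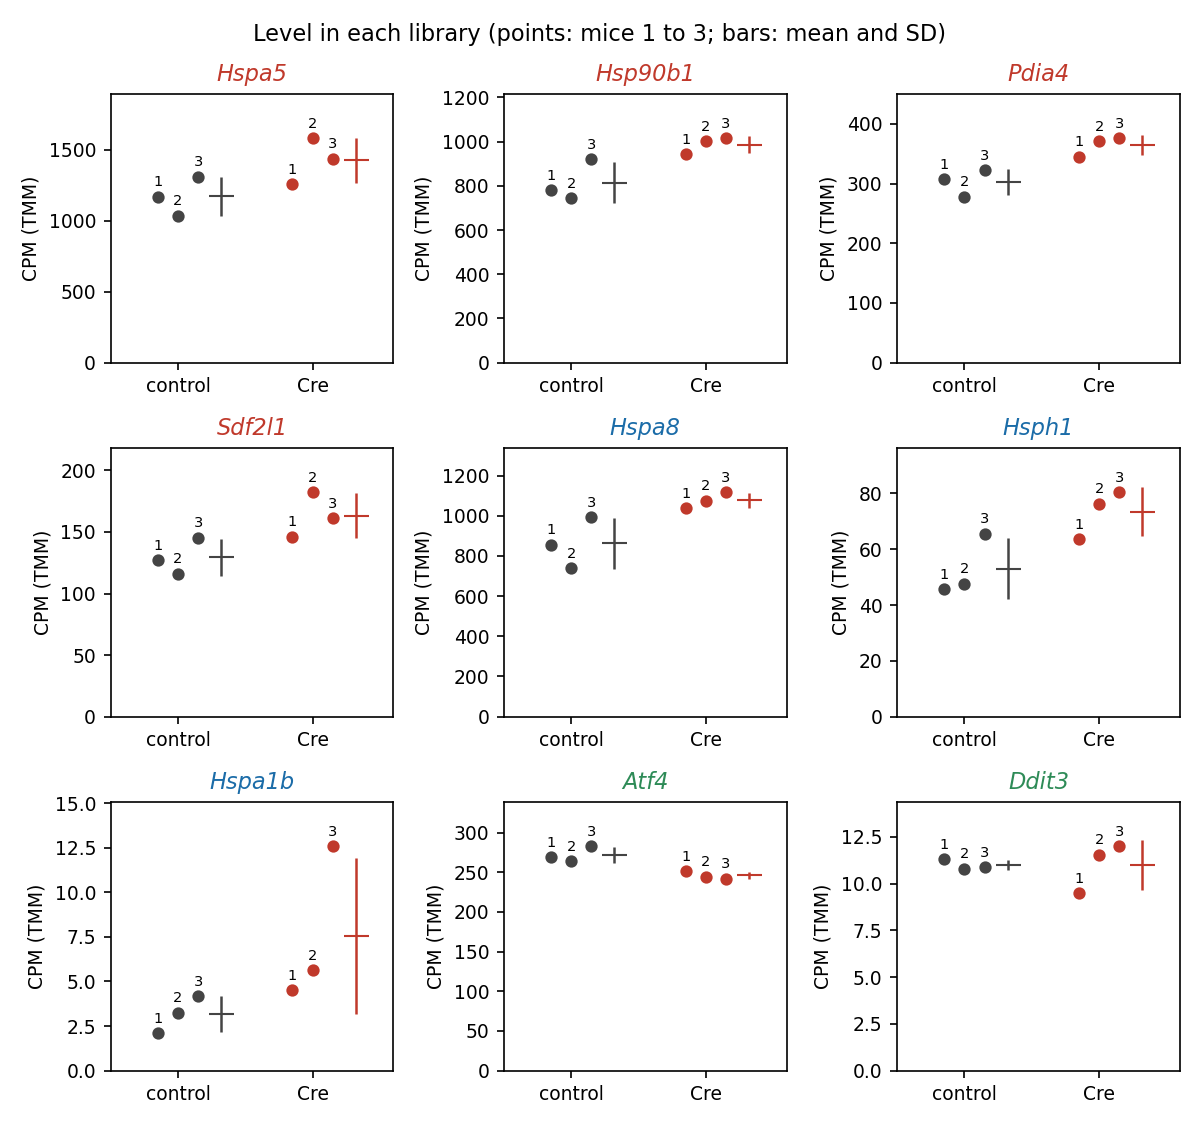
Level (CPM) of 9 members in each of the 3 control and 3 Cre libraries, numbered by mouse, with the mean and SD of each group beside the points and every axis starting at 0. Hspa8, Hsp90b1, Pdia4, Sdf2l1 and Hspa1b have all Cre points above the controls, Hspa5 and Hsph1 overlap, Ddit3 is level, and Atf4 has all Cre points below.

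The ER chaperones all pointed the same way. All 15 had a log2 fold change between 0.141 and 0.335, 10 of them were higher at an unadjusted p under 0.05, beside 6.54% of all tested genes, and in 11 all Cre libraries were above the controls, beside 8.63%. Without control library 2 the range was 0.0702 (Manf) to 0.26, and Pdia3 and Dnajb11 were at 0.091 and 0.0907, while without Cre library 2 it began at 0.102 (P4hb). Summed over the class, the levels were 7950, 7340 and 8690 CPM in the controls and 8770, 9730 and 9240 CPM in the Cre libraries. The Cre sums were thus above all control sums, although Cre library 1 exceeded control library 3 by little.

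Hspa5 encodes BiP, the Hsp70 of the ER that also holds the 3 sensors inactive. It was at 1170, 1035 and 1311 CPM in the controls and at 1260, 1582 and 1437 CPM in the Cre libraries. Control library 3 was above Cre library 1, so the groups overlapped, and the log2 fold change was 0.28 ± 0.11 (SE, unadjusted p 0.0347). Hsp90b1, which encodes the Hsp90 of the ER, GRP94, was at 780, 743 and 922 CPM against 943, 1001 and 1015 CPM. Its Cre libraries lay above the controls, with a log2 fold change of 0.28 ± 0.09 (SE), an unadjusted p of 0.0143 in edgeR and an adjusted p of 0.0454 in DESeq2.

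The helpers of BiP behaved alike. Hyou1, the gene of an Hsp110 of the ER that exchanges the nucleotide of BiP, was at 308, 290 and 355 CPM in the controls and at 379, 419 and 370 CPM in the Cre libraries. The groups did not overlap, and the log2 fold change was 0.29 ± 0.09 (SE, unadjusted p 0.0104, adjusted p in DESeq2 0.0331). Sdf2l1, which encodes a partner of the ER Hsp40 proteins, was at 127, 116 and 145 CPM against 146, 182 and 161 CPM. This was the largest fold change of the class, 0.33 ± 0.10 (SE) on the log2 scale (unadjusted p 0.0129, adjusted p in DESeq2 0.0441), and control library 3 all but met Cre library 1. Dnajc3, an Hsp40 that also restrains PERK, was at 228, 222 and 254 CPM against 262, 290 and 265 CPM. Dnajb9, an Hsp40 that binds IRE1, was at 122, 109 and 123 CPM against 126, 141 and 140 CPM. Neither gene overlapped between groups, and the log2 fold changes were 0.22 ± 0.07 for Dnajc3 and 0.20 ± 0.07 (SE) for Dnajb9, with unadjusted p-values of 0.0155 and 0.0213.

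Pdia4 and Pdia6 encode disulfide isomerases, which form and reshuffle disulfide bonds. Pdia4 was at 308, 278 and 322 CPM in the controls and at 345, 371 and 376 CPM in the Cre libraries, all above the controls. It had the smallest p of the 44 members, with a log2 fold change of 0.27 ± 0.07 (SE), an unadjusted p of 0.00539, an adjusted p of 0.185 in edgeR and of 0.0138 in DESeq2. Pdia6 was at 493, 452 and 566 CPM against 574, 596 and 597 CPM. It did not overlap either, with a log2 fold change of 0.23 ± 0.08 (SE, unadjusted p 0.0291). Creld2, which encodes a small ER protein with disulfide isomerase activity, was at 60.0, 53.2 and 71.0 CPM against 70.9, 79.5 and 78.3 CPM. Control library 3 and Cre library 1 were level for Creld2, and the log2 fold change was 0.31 ± 0.10 (SE, unadjusted p 0.0165).

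The lectin chaperones Calr and Canx hold newly made glycoproteins. Calr, the most abundant gene of the class, was at 1330, 1235 and 1440 CPM in the controls and at 1444, 1572 and 1481 CPM in the Cre libraries. Canx was at 1005, 969 and 1074 CPM against 1100, 1137 and 1124 CPM. Both had all Cre libraries above the controls, with log2 fold changes of 0.17 ± 0.07 for Calr and 0.14 ± 0.06 (SE) for Canx and unadjusted p-values of 0.0563 and 0.0498. The remaining members were P4hb and Pdia3, genes of disulfide isomerases, Dnajb11, an Hsp40, and Manf, a secreted ER stress factor. Their log2 fold changes were 0.18, 0.15, 0.16 and 0.16, and their unadjusted p-values lay above 0.05.

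The order of the libraries was shared across the class. Control library 2 was the lowest of all 6 libraries in 15 of 15 ER chaperones, and control library 3 was the highest control in 15 of 15. Over all tested genes these shares were 18.2% and 32.3%. Control library 3 exceeded control library 2 by a median of 0.287 on the log2 scale in ER chaperones and by 0.00437 over all genes, so the spread inside the control group was larger than the median difference between genotypes, 0.22. Cre library 2 was the highest of all in 11 of 15, beside 21.2% of all genes. Cre library 1, which stands apart from the other Cre libraries on the first principal component, was the lowest Cre library in 13 of 15, beside 32.2% of all genes. Part of this order was found in related lists described below, since control library 2 was the lowest of all in 85.7% of genes of the chaperonin CCT and prefoldin and in 59.3% of other ER folding genes, and Cre library 2 the highest in 64.3% and 55.9%.

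Taken library by library, the class median of the ER chaperones over the control mean was -0.0058, -0.13 and 0.116 on the log2 scale in the controls and 0.162, 0.295 and 0.218 in the Cre libraries. The cytosolic and mitochondrial class gave -0.0462, -0.0468 and 0.0837 in the controls and 0.108, 0.153 and 0.139 in the Cre libraries, and the ATF4 arm 0.012, -0.0206 and 0.0208 against -0.13, 0.0178 and 0.00595. Control library 3 was the highest control in all 3 classes, and for the ER chaperones it was the control nearest to the Cre libraries. The count of 10 ER chaperones at an unadjusted p under 0.05 became 5, 3 and 14 without control library 1, 2 and 3, and 10, 5 and 6 without Cre library 1, 2 and 3. The share of all genes at that threshold was not counted in these settings, so the counts have no background. The median of the ER chaperones lay between 0.152 (without control library 2) and 0.273 (without control library 3) over these settings.

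**Figure D3:**
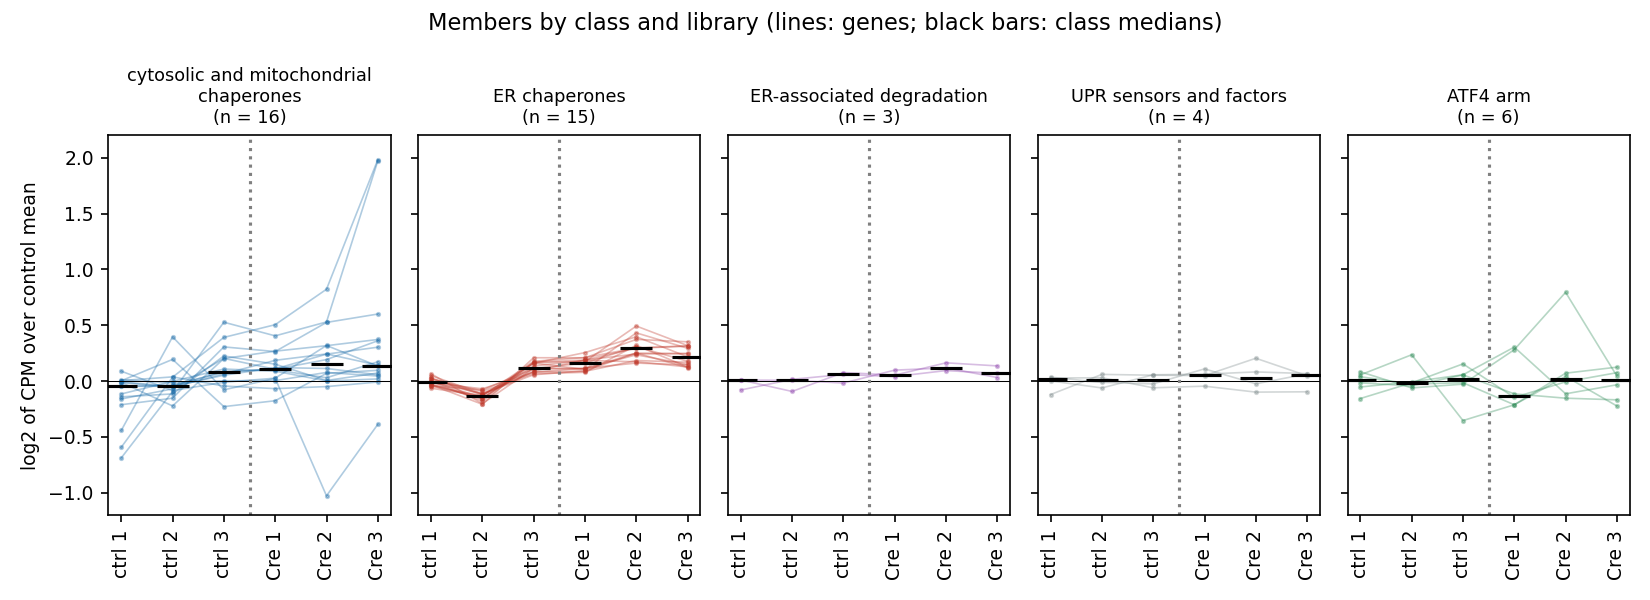
Log2 of each tested member's level over its control mean in the 3 control and 3 Cre libraries, 1 panel per class, where a line joins the values of 1 gene (libraries have no order) and a black bar is the class median. ER chaperones form a narrow band that is lowest in control library 2 and highest in Cre library 2, with medians of -0.13 and 0.295, and the 2 lines that leave the first panel's band in Cre library 3 are Hspa1a and Hspa1b.

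Markers of other cells were present, and some were higher in the Cre libraries along with the ER chaperones. Summed markers of interstitial and monocyte-derived macrophages (16 of 16 tested) were at 540, 525 and 523 CPM in the controls and at 557, 944 and 1600 CPM in the Cre libraries. Of these 16, 13 had a log2 fold change above 0, with a median of 0.924 and a range of -0.519 to 5.31. At an unadjusted p under 0.05 in edgeR, 10 were higher and none lower, beside 6.54% and 6.28% of all tested genes. DESeq2 called 7 higher at an adjusted p under 0.05, beside 2.32% of genes. Plasma cell and B cell markers (13 of 14 tested), cells rich in ER chaperones, summed to 43.9, 64.8 and 41.3 CPM against 43.6, 73.3 and 244 CPM. Cre library 1 thus lay inside the control range for this sum. All 13 tested had a log2 fold change above 0, with a median of 0.81. Of the 13, 6 were higher at an unadjusted p under 0.05, beside 6.54% of all tested genes. Both sums were lowest in Cre library 1 of the Cre libraries, as were 13 of 15 ER chaperones, and highest in Cre library 3. The ER chaperones were highest in Cre library 2 in 11 of 15 and in Cre library 3 in 3 of 15. Control library 2, the lowest library in 15 of 15 ER chaperones, had the highest plasma cell and B cell sum of the controls, 64.8 CPM. Immediate early genes, which respond to cell handling, summed to 8580 to 9950 CPM in the controls and 7300 to 9080 CPM in the Cre libraries. Of 21 such genes 6 were lower and 2 were higher at an unadjusted p under 0.05, beside 6.28% and 6.54% of all tested genes.

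All 14 alveolar macrophage markers were tested and summed to 22500 to 26000 CPM in the controls and 27900 to 41700 CPM in the Cre libraries. Of these 14, 8 had a log2 fold change above 0 and 6 below, with a median of 0.0445. At an unadjusted p under 0.05 in edgeR 4 were higher and 2 lower, beside 6.54% and 6.28% of all tested genes. Siglecf and Itgax, which define these cells, were abundant throughout. Neutrophil markers summed to 52.6 to 58.9 CPM against 65.8 to 70.8 CPM, with Ly6g at 0 in all libraries, and T and NK cell markers to 1.78 to 2.62 CPM against 2.86 to 5.19 CPM. Dendritic cell markers summed to 16.7 to 25.2 CPM against 17.6 to 23.3 CPM, and 5 of 8 tested had a log2 fold change above 0 (median 0.428). Lung epithelium markers summed to 261 to 348 CPM against 230 to 298 CPM, although 8 of 12 tested lay above 0 (median 0.208, from -2.2 to 0.757). Endothelium and fibroblast markers summed to 23.2 to 35.8 CPM against 20.4 to 45.5 CPM, with 7 of 9 tested above 0 (median 0.129). Eosinophil and mast cell markers summed to at most 0.416 CPM, with Epx and Ccr3 at 0 in all libraries but 1. The part of these cells in the differences of the members was not tested.

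The 7 ER chaperone genes that carry the ER stress response element shown above had a median log2 fold change of 0.226, from 0.141 to 0.314. Of these, 6 were higher at an unadjusted p under 0.05, beside 6.54% of all tested genes. The 6 with an entry but no such match had a median of 0.189, from 0.148 to 0.335, and 3 had an unadjusted p under 0.05. The ranges overlapped. Of 28 other genes with the element 10 were tested, and their median was 0.0819, with 7 of 10 above 0. At an unadjusted p under 0.05 none of the 10 was higher and 1 was lower, beside 6.54% and 6.28% of all tested genes. The lower gene was the adenylate cyclase gene Adcy3, with a log2 fold change of -0.41 (DESeq2 adjusted p 0.00573). The part of the element in these differences was not tested.

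ER-associated degradation returns misfolded protein to the cytosol for destruction. Herpud1, which encodes a scaffold of the degradation complex, was at 101, 94.2 and 106 CPM in the controls and at 104, 113 and 110 CPM in the Cre libraries, which overlapped. Sel1l, the gene of a partner of its ubiquitin ligase, was at 286, 285 and 280 CPM against 304, 308 and 290 CPM, with no overlap. The log2 fold changes were 0.12 ± 0.06 for Herpud1 and 0.08 ± 0.05 (SE) for Sel1l, and Edem1, a lectin that marks misfolded glycoproteins, had 0.07. None of the 3 had an unadjusted p under 0.05, and the smallest was 0.0849.

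The sensors and the factors they act through had small fold changes in both directions. Ern1 was at 66.1, 75 and 74.6 CPM in the controls and at 74.4, 82.9 and 74.3 CPM in the Cre libraries, with a log2 fold change of 0.10 ± 0.07 (SE). Xbp1 was at 438, 419 and 455 CPM against 457, 463 and 458 CPM, so that the Cre libraries lay just above the controls, with 0.07 ± 0.05. Counts per gene do not separate the spliced Xbp1 transcript from the unspliced, so IRE1 activity was not measured. Atf6 was at 100, 100 and 94.4 CPM against 95.3, 91.9 and 92.1 CPM, with -0.08 ± 0.05 (SE, unadjusted p 0.144). Eif2ak3 was at 61.2, 59.2 and 58.7 CPM against 64.4, 58.7 and 62.4 CPM, with 0.05 ± 0.05. Xbp1 was the only one of the 4 without overlap, and the unadjusted p-values of all 4 lay above 0.05.

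The ATF4 arm held the one member that was lower at an unadjusted p under 0.05, Atf4 itself. Atf4 was at 269, 264 and 283 CPM in the controls and at 251, 245 and 242 CPM in the Cre libraries. Every Cre library was below every control, with a log2 fold change of -0.14 ± 0.05 (SE), an unadjusted p of 0.0234 and an adjusted p of 0.302 in edgeR. The unadjusted p of Atf4 was above 0.05 without control library 3 (0.073), Cre library 2 (0.0555) or Cre library 3 (0.0861). Transcript level is only part of ATF4 control, which is mostly translational, so ATF4 protein cannot be read from these values.

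Its targets had no common direction. Asns, the asparagine synthetase gene whose element is shown above, was at 4.47, 4.04 and 4.14 CPM in the controls and at 5.12, 7.31 and 4.35 CPM in the Cre libraries. The groups overlapped because Cre library 3 lay among the controls, and the log2 fold change was 0.41 ± 0.19 (SE, unadjusted p 0.0677). It rested on Cre library 2, without which it was 0.168 (unadjusted p 0.285), and without Cre library 3 it was 0.563 (unadjusted p 0.0165). Ddit3, the gene of the pro-death factor CHOP, was at 11.3, 10.8 and 10.9 CPM against 9.5, 11.6 and 12 CPM, and the groups overlapped. Atf3, a stress-induced factor, was at 191, 198 and 206 CPM against 245, 183 and 194 CPM, so that Cre library 1 alone was above the controls.

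The log2 fold changes were 0.06 for Atf3, -0.13 for Trib3, the gene of a pseudokinase that restrains ATF4, and -0.02 for Ppp1r15a, which encodes the phosphatase subunit GADD34 that restores translation. Chac1, a glutathione-degrading enzyme gene that ATF4 and CHOP induce, had 5 to 17 counts per library. Its values were 0.282, 0.0831 and 0.088 CPM in the controls and 0.118, 0.201 and 0.130 CPM in the Cre libraries, and most libraries lay just above the level of 3 counts.

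Per length of transcript, the members spanned a wide range. Expressed as RPKM (CPM per kilobase of summed exon length), Hsp90ab1 was the highest at 540 ± 19 RPKM in the controls and 578 ± 13.9 RPKM in the Cre libraries (SD, n = 3 each), followed by Calr at 464 ± 35.7 and 520 ± 22.8 RPKM. P4hb, Pdia3 and Hspa5 came next at 290 ± 15.9, 278 ± 19.5 and 277 ± 32.6 RPKM in the controls. Their ranges of mean ± SD overlapped, and their order within each library was not compared. Canx at 217 ± 11.4, Hsp90b1 at 202 ± 23.4 and Hspa8 at 200 ± 29.4 RPKM lay below them. ER chaperones thus filled most of the upper end. The inducible Hspa1b and Hspa1a were at 1.13 ± 0.369 and 0.568 ± 0.235 RPKM in the controls, Hspb1 at 0.306 ± 0.0899 and Chac1 lowest at 0.0923 ± 0.0694 RPKM. Exon length is that of all annotated transcripts of a gene, so the level of a gene that uses few of them is understated.

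**Figure D4:**
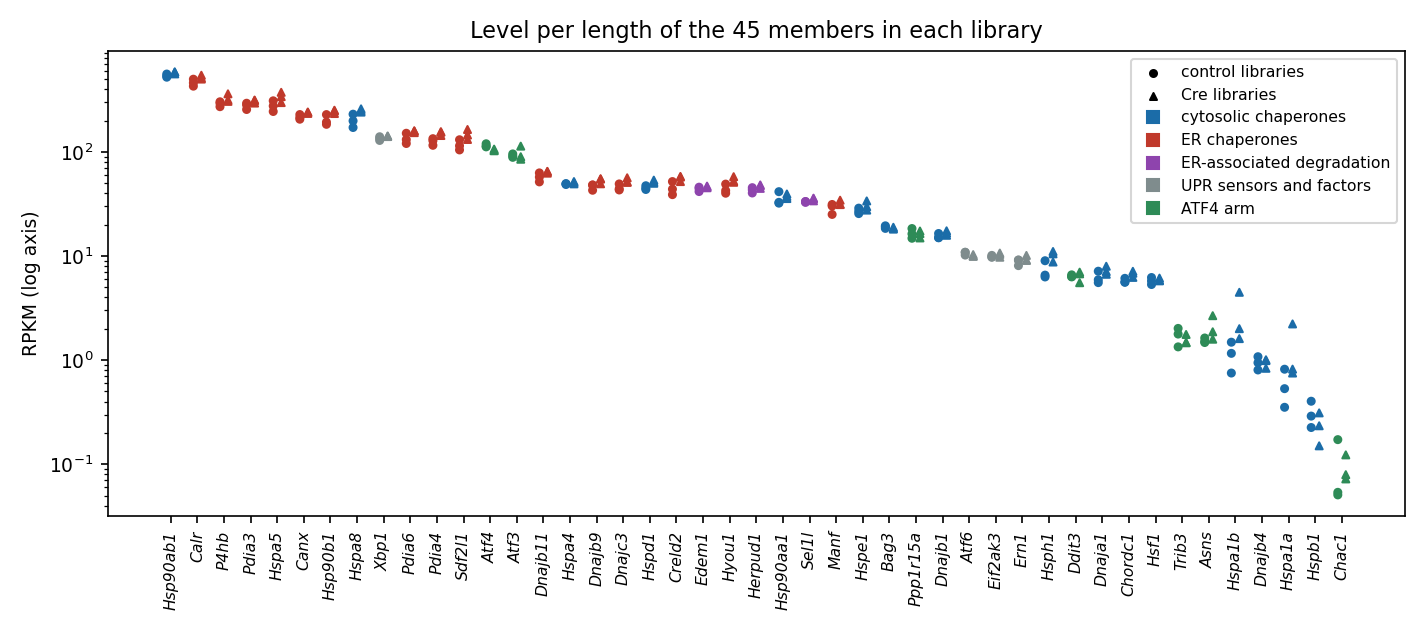
Level per length (RPKM, log axis) of the 45 members in each library, circles for the 3 controls and triangles for the 3 Cre libraries, coloured by class and ordered by control mean. Hsp90ab1, Calr, P4hb, Pdia3 and Hspa5 stand at the upper end, while the ER chaperones reach down to Manf at 28.9 RPKM in the controls. Hspa1b, Hspa1a, Hspb1 and Chac1 stand at the lower end, and for most genes the 6 points nearly coincide.

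Genes of the same pathways outside the 45 were compared in 9 lists. Other ER folding and translocation genes came closest to the ER chaperones in median: 50 of 59 tested had a log2 fold change above 0, with a median of 0.0825. At an unadjusted p under 0.05, 13.6% of the 59 were higher and 1.69% were lower, beside 6.54% and 6.28% of all genes, and 22.0% had all Cre libraries above the controls, beside 8.63%. Rcn1, the gene of a calcium-binding protein of the ER, was at 0.797, 0.865 and 1.34 CPM in the controls and at 1.79, 2.77 and 2.21 CPM in the Cre libraries. DESeq2 called Rcn1 higher (adjusted p 0.00665), with a log2 fold change of 1.18 ± 0.27 (SE) in edgeR. Pdia5, a disulfide isomerase gene, was at 5.35, 5.19 and 6.56 CPM against 7.05, 10.4 and 7.45 CPM, with a log2 fold change of 0.54 ± 0.17 (SE, unadjusted p 0.0146). Neither gene overlapped between the groups. Among other genes of ER-associated degradation 15 of 23 lay above 0 with a median of 0.0112, and the smallest p-values were those of Edem2 (log2 fold change 0.15, unadjusted p 0.0488) and Derl3 (0.49, unadjusted p 0.0537).

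Other cytosolic chaperones and co-chaperones were spread around 0, with 21 of 38 above it, and a median of 0.022. At an unadjusted p under 0.05, 2.63% were higher and 7.89% lower, near or below those shares of all genes. Dnaja4, an Hsp40 gene, was at 3.82, 4.49 and 1.81 CPM in the controls and at 0.93, 1.16 and 1.97 CPM in the Cre libraries. DESeq2 called Dnaja4 lower (adjusted p 0.0175), with a log2 fold change of -1.32 ± 0.39 (SE) in edgeR, although control library 3 lay below Cre library 3. Hspb8, a small heat shock protein gene, had a log2 fold change of 1.13 ± 0.40 (SE, unadjusted p 0.022) at under 1 CPM. The cytosolic chaperonin CCT and prefoldin had 11 of 14 above 0 with a median of 0.0471, and mitochondrial chaperones and proteases had 8 of 14 with a median of 0.0232. No gene of either list had an unadjusted p under 0.05, and the smallest were those of Tcp1 (0.164) and Cct4 (0.228), and of Atf5 (0.0851) and Grpel2 (0.113).

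Amino acid and one-carbon targets of ATF4 had 8 of 19 above 0 and a median of -0.029. Slc7a5, which encodes the transport subunit of the large amino acid transporter LAT1, was at 131, 132 and 127 CPM in the controls and at 112, 98.7 and 101 CPM in the Cre libraries. Slc3a2, the gene of its heavy chain CD98, was at 347, 357 and 353 CPM against 303, 310 and 309 CPM. All Cre libraries were below all controls for both chains of the transporter, with log2 fold changes of -0.32 ± 0.06 and -0.20 ± 0.05 (SE). DESeq2 called both lower, with adjusted p-values of 0.00102 and 0.00483, and edgeR called neither, with adjusted p-values of 0.146 and 0.173 (Benjamini-Hochberg). Gpt2 and Got1, transaminase genes of the same list, were higher at an unadjusted p under 0.05, with log2 fold changes of 0.33 and 0.38.

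The 13 aminoacyl-tRNA synthetase and tRNA export genes had a median of 0.00864, and the smallest p-values were those of Gars (unadjusted p 0.0802) and Xpot (0.193). Other stress targets of ATF4 and CHOP had a median of 0.0211, and the 2 of smallest p were the cell death genes Bbc3, with a log2 fold change of 0.42 (unadjusted p 0.0136), and Bcl2l11, with -0.21 (unadjusted p 0.0142). Other regulators of the response had a median of 0.00837 and none at an unadjusted p under 0.05, the smallest being those of Map3k5 (0.129) and Eif2ak4 (0.136). The ER folding lists thus had medians above those of the ATF4 lists, and that difference between lists was not tested.

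**Figure D5:**
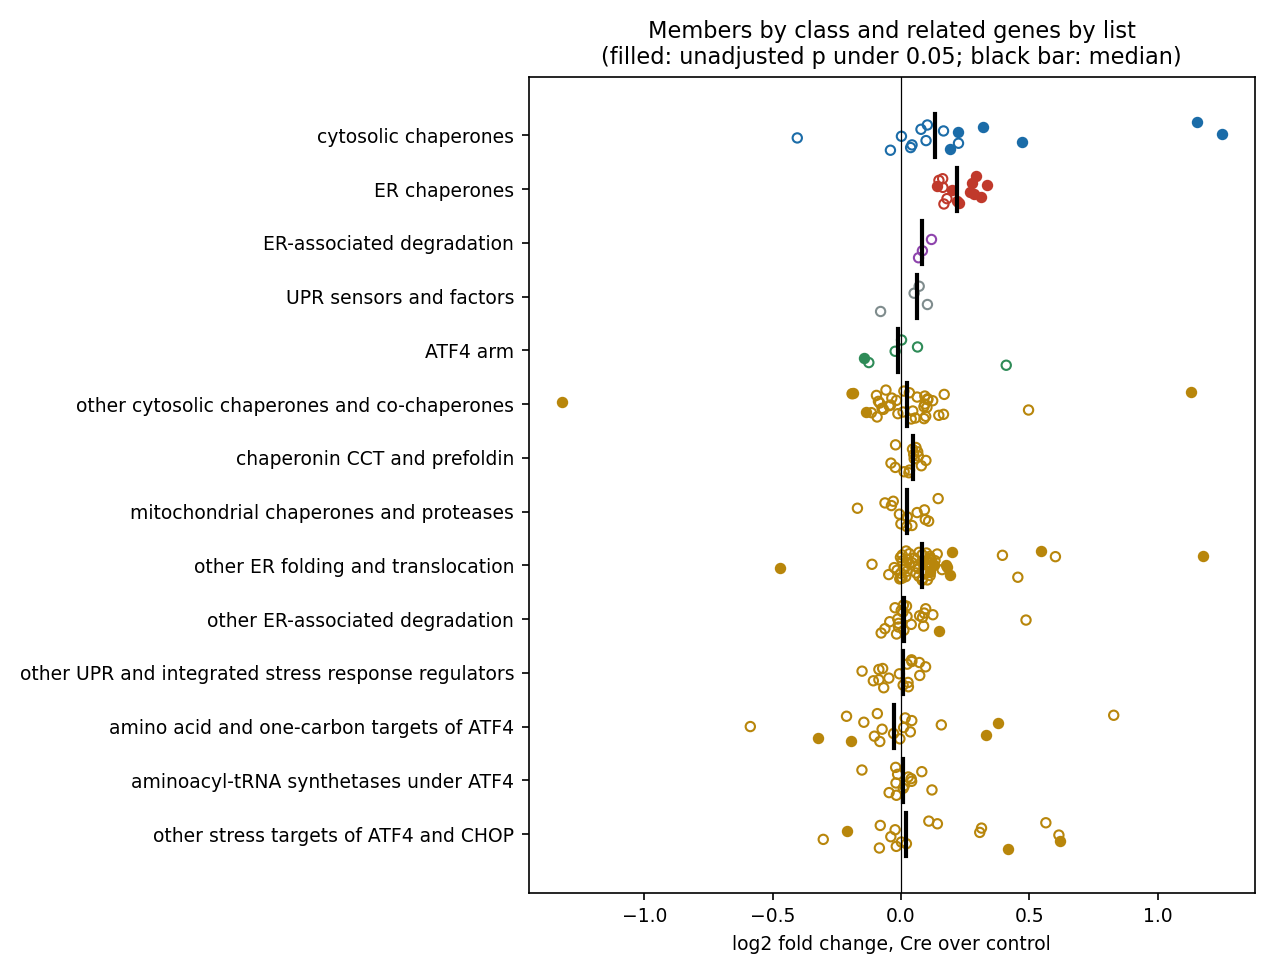
Log2 fold change, Cre over control, of the tested genes of the 5 member classes (coloured) and of 9 related lists, 1 point per gene, filled where the unadjusted p was under 0.05, with a black bar at each median. The ER chaperones lie to the right of 0 as a compact group with a median of 0.218, other ER folding genes have a median of 0.0825, and the ATF4 arm and the lists of its targets sit around 0.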

How the data were processed

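The deposited values are raw counts, 1 row per gene and 1 column per library (6 libraries). GRCm38 is the build in the submitters' processing notes, which list STAR 2.6.1 and featureCounts 1.6.4 among the tools. Annotation, strand setting and the handling of reads that match several genes are not given there, so overlapping genes (Hspe1 with Hspd1, for example) cannot be told apart where they overlap. Columns were assigned through the library names in the labels. The quasi-likelihood test of edgeR 4.0.16 (R 4.3.3, two-sided) was run after filterByExpr (minimum count 10) and TMM scaling. P-values were adjusted by Benjamini-Hochberg over the 15147 genes tested, at a threshold of 0.05. The SE was taken from the fold change and the F statistic, as |log2 fold change| over the root of F. The biological coefficient of variation was 14.4%. RPKM used exon lengths of GENCODE M21, which held 45229 of the 46078 identifiers and all members. All pairs of libraries within a group differed by more than sampling noise (chi-square per degree of freedom 21.9 to 57.5). Floors of 3 counts cover counting error only. Each library is a mouse, and a p-value weighs the difference between genotypes against the variation between libraries. With 1 library per mouse, differences between mice and between preparations cannot be told apart.

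The members, the 9 related lists and the 10 lists of markers and immediate early genes were chosen with earlier results of these data known. Values are given for each member with an unadjusted p under 0.05, for the 2 of smallest p in classes with fewer than 2 such members, for the most abundant of each class and for the regulators, and the 2 of smallest p are named from each related list. Any further gene was picked with its values in view. Tests were repeated with DESeq2 1.42.0 and limma-voom (limma 3.58.1), with scaling by RLE, by upper quartile or by library size alone, without a filter or with one of 5 CPM in 3 libraries, with a block for the replicate number, and without each library in turn. The code was tested on simulated counts.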

Additional observations from a re-analysis of the deposited data

How the results depend on the processing

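The ER chaperone median stayed between 0.152 and 0.273, and the class medians of the ER and cytosolic chaperones were above 0 in all settings tried. The 1 gene called in each direction by edgeR became 344 higher and 217 lower with DESeq2, 340 and 183 with no filter, and 1 to 249 higher and 0 to 52 lower when a library was left out. Members called higher were 6 with DESeq2 and 2 with no filter. Members higher at an unadjusted p under 0.05 numbered 7 to 23 when a library was left out, with 9 without control library 1 and 7 without control library 2, and those lower 0 to 1. The share of all genes at that threshold was not counted with a library left out. A change in these member counts thus cannot be told apart from a change over all genes. The cytosolic median was 0.11 with the filter of 5 CPM, which drops the low genes Hspa1a, Hspa1b and Hspb1, and 0.116 to 0.178 when a library was left out. That of the ATF4 arm ran from -0.0621 to 0.0287 when a library was left out, on both sides of 0.

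With the replicate block, edgeR called 8 genes higher and 2 lower, and 0 members were lower at an unadjusted p under 0.05 (Atf4 had 0.0673). Libraries of the same number had correlations of their deviations of -0.00977, -0.156 and 0.0691, so the numbers were not taken to pair mice. Genes near 0 changed sign: Dnajb4 was at -0.00695 and Ddit3 at -0.00578 with library size alone, and Ddit3 was at -0.00653 with limma-voom and at -0.00433 with the replicate block. With a library left out, the ranges of the log2 fold change were -0.0175 to 0.0901 for Hsf1, -0.105 to 0.108 for Dnajb4, -0.0789 to 0.145 for Atf3, -0.0621 to 0.092 for Ddit3, -0.278 to 0.00705 for Trib3, -0.0956 to 0.0561 for Ppp1r15a and, on 1 side of 0, 0.168 to 0.563 for Asns. The causes were not tested.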
